A study of Mus musculus with 6 samples.

Results

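Actin, the proteins that bind its filaments and the myosin motors that pull on them were examined in RetSat-depleted primary hepatocytes. The 41 genes were listed by name for their roles in the actin cytoskeleton, with earlier results of these data known. Each gene was read from its brightest probe set among those naming that gene alone. This gave values for 38 of the 41 genes, among 19938 genes tested. Actg1, Actr2 and Arpc3 were not analysed here, Actg1 because its 4 probe sets also name Actb. All 38 lay above the level of 4.33 (log2) that marks the dimmest 40% of genes, in both groups.

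Hepatocytes came, by the labels, from a wild-type male C57BL/6J mouse aged 10 weeks and were plated on collagen in medium with 25 mM glucose. The cells received 1 nmol of control siRNA (siControl, 3 transfections) or of siRNA against RetSat (siRetSat, 3 transfections) with Lipofectamine 2000 overnight, and RNA was collected 48 h after the next change of medium. RetSat (retinol saturase) is an oxidoreductase of liver, and the comparison asks which genes follow its depletion. The study's methods give a younger age than the labels. All cells share 1 donor animal according to the labels, so the p-values below measure the spread between transfections and not between mice. No other siRNA against RetSat was analysed here, so effects of this duplex beyond RetSat cannot be told apart from those of the depletion. Values are normalized log2 intensities. A log2 fold change is the siRetSat mean minus the siControl mean, given with its standard error (SE) and tested by limma with Benjamini-Hochberg adjustment over all genes. A call means an adjusted p under 0.05. Retsat itself read 6.80, 7.04 and 7.01 in siControl and 4.62, 4.83 and 4.81 in siRetSat. The hepatocyte marker Alb read from 12.90 to 13.10 on the 6 arrays, and all 9 measured of 10 hepatocyte markers were above the dim level.

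Actin filaments grow from monomers, are branched by the Arp2/3 complex, coated by tropomyosins, bundled by cross-linkers such as alpha-actinin and pulled by myosin. Severing and capping proteins turn them over, and talin, vinculin and the ezrin family tie them to the membrane. In hepatocytes, actin forms the cortex and the microvilli of the bile canaliculus. Plated hepatocytes are known to spread and to build stress fibres on stiff, collagen-coated plastic.

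Of the 38 measured genes, 2 fell and 1 rose in siRetSat, while 35 did not pass. Myo1c, a membrane-linking myosin, fell 2.53-fold, and Actn4, an alpha-actinin, fell 1.70-fold. Capg, which caps filament ends, rose 1.43-fold. Together these are 7.89% of the measured genes, against 3.56% called among all genes. By direction, 1.66% of all genes were called lower and 1.91% higher. None of the 38 genes was dim, while all genes tested include dim ones. In the fit without dim genes, 964 of 11960 genes were called, 470 lower and 494 higher. That fit called 3 of the 38 lower, with Tpm1 added, and 1 higher. The 3.56% is thus not a share among comparably bright genes. The median log2 fold change was -0.06 over the 38 genes and 0.00 over all genes tested. Most of the cytoskeletal genes moved little, with 25 of 38 within 0.2 of 0 on the log2 scale, or 65.8%, against 76.8% of all genes. For 19 of the 35 genes that did not pass, the 95% interval of the log2 fold change stayed within 0.32 of 0. At an unadjusted p under 0.05, 10 were lower and 2 higher, where 7.52% of all genes were lower and 6.98% higher. Adding the cutoff of the study's methods, a log2 change of at least 0.32, left 7 lower and 2 higher, where 4.58% of all genes were lower and 4.47% higher. The methods' t-test, after adjustment, called Myo1c and Actn4 and no other member.

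**Figure D1:**
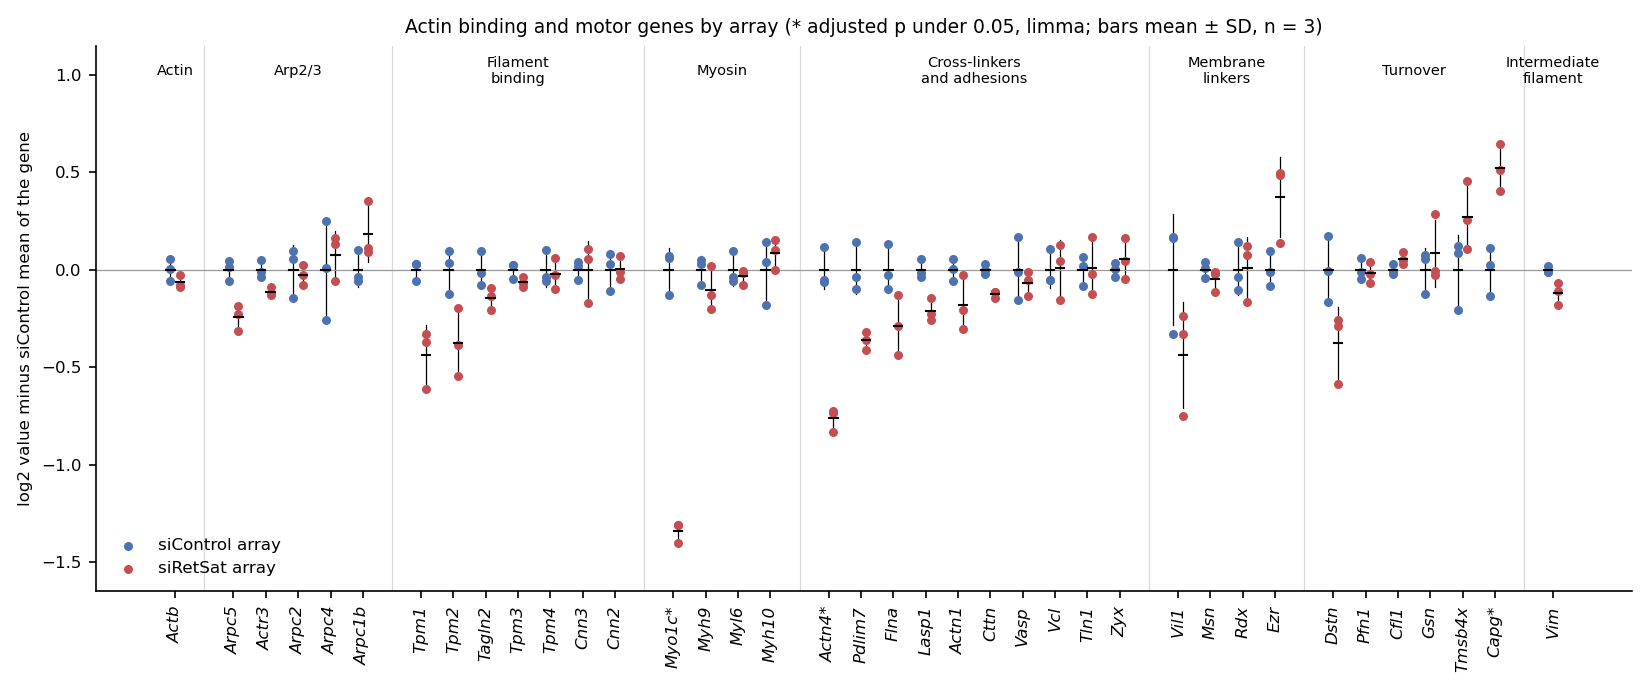
Dots are arrays, shown on the y axis as the log2 difference from the siControl mean of the gene, for 38 actin binding and motor genes grouped by role (x axis). Ticks mark the mean of a group and thin lines extend by 1 SD (n = 3), and Myo1c at -1.34, Actn4 at -0.76 and Capg at 0.52 are the genes marked with an asterisk.

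Among the 4 myosin genes, Myo1c stood alone in passing the test, where 1.66% of all genes were called lower and 1.91% higher. Myo1c encodes a single-headed class I myosin that links membranes to actin. Its log2 value was 8.91, 9.10 and 9.11 in siControl and 7.64, 7.73 and 7.73 in siRetSat. The lowest siControl array was more than 1 log2 unit above the highest siRetSat array. The means were 9.04 ± 0.11 and 7.70 ± 0.05 (SD, n = 3 each). The log2 fold change was thus -1.34 (SE 0.0926, limma adjusted p = 0.000477). Myo1c was called in all 6 fits that omit an array, with values from -1.41 to -1.31. Myh9 and Myh10, the heavy chains of non-muscle myosin II that drive stress fibre contraction, had log2 fold changes of -0.10 (95% interval -0.32 to 0.11) and 0.08 (95% interval -0.16 to 0.33). Myl6, a light chain of that motor, had one of -0.03 (95% interval -0.23 to 0.16). Its 6 probe sets gave differences between -0.05 and -0.03.

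Cross-linkers and adhesion proteins had 1 of 10 genes called lower and none higher by limma, against 1.66% and 1.91% of all genes. At an unadjusted p under 0.05, 4 were lower and none higher, against 7.52% and 6.98% of all genes. Actn4, a non-muscle alpha-actinin that bundles filaments, read 10.65, 10.82 and 10.64 in siControl. In siRetSat it read 9.98, 9.97 and 9.87, with no overlap between the groups. The siControl mean was 10.70 ± 0.10 and the siRetSat mean 9.94 ± 0.06 (SD, n = 3 each). The log2 fold change was -0.76 (SE 0.0913, limma adjusted p = 0.00443). Actn4 also was called in all 6 fits that omit an array, at -0.80 to -0.71 (log2). Its close relative Actn1, the other non-muscle alpha-actinin, had a log2 fold change of -0.18 (95% interval -0.41 to 0.05, adjusted p = 0.498). Pdlim7, a scaffold of stress fibres, read 8.98, 8.74 and 8.80 in siControl and 8.48, 8.43 and 8.52 in siRetSat. These groups did not overlap, yet its log2 fold change of -0.36 did not pass (limma adjusted p = 0.0909). Flna (filamin A, a cross-linker at the cell cortex) and Lasp1 (a LIM and SH3 adaptor) were at -0.29 and -0.21, with adjusted p of 0.274 and 0.291. The adhesion proteins Vcl, Tln1 and Zyx (vinculin, talin and zyxin) lay at 0.01, 0.01 and 0.05, and Vasp, which promotes filament elongation, at -0.07. Cttn (cortactin, which stabilises branches) lay at -0.12.

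Without both arrays numbered 2, which left 2 arrays per group, neither Myo1c at -1.33 (limma adjusted p = 0.0830) nor Actn4 at -0.72 (limma adjusted p = 0.208) passed. That fit called 15 genes of all tested. Without both arrays numbered 3, Myo1c passed and Actn4 at -0.76 did not (limma adjusted p = 0.0764).

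Genes of filament turnover included the only member that rose. Capg, a gelsolin relative that caps the growing end of filaments and is abundant in macrophages, read 5.23, 5.39 and 5.48 in siControl and 5.77, 5.88 and 6.01 in siRetSat. All siRetSat arrays were above all siControl arrays, with a log2 fold change of 0.52 (SE 0.105, limma adjusted p = 0.0370). This call was kept without siRetSat 1 and lost without each of siControl 1, siControl 2, siControl 3, siRetSat 2 and siRetSat 3, while the value stayed between 0.45 and 0.58. It was also lost with arrays centred on their medians, at 0.50 (limma adjusted p = 0.165). The summed linear intensity of 12 macrophage markers also was higher, from 2468 to 2752 in siControl and from 3329 to 3561 in siRetSat. Cd14 and Cd68 carried this difference, Cd14 called higher at 0.59 and Cd68 at 0.40 without passing (limma adjusted p = 0.0563). The other 10 markers summed to 139 to 155 in siControl and 143 to 162 in siRetSat, so the groups overlapped. Of these 10, 5 had negative and 5 positive log2 fold changes, from -0.12 for Lyz2 to 0.24 for Clec4f, and 9 were dim, Adgre1, Csf1r and Ptprc among them. The part of macrophages in the result for Capg was not tested. In such bulk RNA, fewer cells of a type and less RNA per cell cannot be told apart.

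The other turnover genes did not pass. Dstn (destrin, which severs filaments) read 11.67, 12.01 and 11.83 in siControl and 11.25, 11.55 and 11.58 in siRetSat. The groups were separated by under 0.1, and its log2 fold change was -0.38 (limma adjusted p = 0.199). Its relative Cfl1 (cofilin) was at 0.06 (95% interval -0.13 to 0.24). The monomer-binding proteins Pfn1 (profilin, which feeds growing ends) and Tmsb4x (thymosin beta 4, which sequesters actin) were at -0.02 and 0.27. Gsn (gelsolin) was at 0.08 (95% interval -0.18 to 0.34). With Capg, 1 of the 6 turnover genes was lower (Dstn) and 1 higher (Capg) at an unadjusted p under 0.05. At that p, 7.52% of all genes were lower and 6.98% higher.

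Tropomyosins, calponins and transgelin 2, which lie along the filament, had none of 7 genes called in either direction by limma. At an unadjusted p under 0.05, 2 were lower, Tpm1 and Tpm2, and none higher, against 7.52% and 6.98% of all genes. Tpm1 read 11.25, 11.34 and 11.34 in siControl and 10.70, 10.98 and 10.94 in siRetSat, a log2 fold change of -0.44 (SE 0.101, limma adjusted p = 0.0604). Tpm2 read 9.24, 9.46 and 9.40 in siControl and 8.82, 9.17 and 8.98 in siRetSat, a log2 fold change of -0.38 (SE 0.115, limma adjusted p = 0.150). For both genes all siRetSat arrays lay below all siControl arrays, and siRetSat 1 was the lowest. Tpm1 passed in some alternatives, among them without dim genes (limma adjusted p = 0.0353) and after a second quantile normalization (limma adjusted p = 0.0223). It passed in none of the 6 fits that omit an array. It also failed with arrays centred on their medians (limma adjusted p = 0.198) and by the methods' t-test after adjustment (adjusted p = 0.162). Tpm3 and Tpm4 differed little, at -0.06 (95% interval -0.25 to 0.12) and -0.02 (95% interval -0.23 to 0.19). Cnn2 and Cnn3, the non-muscle calponins, had log2 fold changes of 0.00 and -0.00, with 95% intervals of -0.21 to 0.21 and -0.23 to 0.23. Tagln2 was at -0.15 (limma adjusted p = 0.554).

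Actb itself, cytoplasmic beta-actin, read 13.17, 13.28 and 13.23 in siControl and 13.20, 13.14 and 13.15 in siRetSat. The groups overlapped, and the log2 fold change was -0.06 (95% interval -0.25 to 0.13, limma adjusted p = 0.865). Of the 5 measured subunits of the Arp2/3 complex, which nucleates branches, none passed. At an unadjusted p under 0.05, 1 was lower and none higher, where 7.52% of all genes were lower and 6.98% higher. That subunit was Arpc5, at 11.35, 11.45 and 11.42 in siControl and 11.22, 11.09 and 11.18 in siRetSat, a log2 fold change of -0.24 (limma adjusted p = 0.215). Actr3, Arpc1b, Arpc2 and Arpc4 ranged from -0.11 to 0.18, so the measured subunits did not share a direction.

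The ezrin family, which ties actin to the plasma membrane, gave no call in either direction among 4 genes counted with villin. At an unadjusted p under 0.05, 1 was lower and 1 higher, against 7.52% and 6.98% of all genes. Ezr (ezrin) read 7.19, 7.37 and 7.26 in siControl and 7.76, 7.77 and 7.41 in siRetSat. Its log2 fold change was 0.37 (limma adjusted p = 0.173), and siRetSat 3 lay barely above the highest siControl array. Msn (moesin) and Rdx (radixin) were at -0.05 and 0.01, with 95% intervals of -0.24 to 0.14 and -0.25 to 0.27. Vil1 (villin, a bundler of microvilli) read 7.52, 8.02 and 8.01 in siControl and 7.10, 7.61 and 7.52 in siRetSat. The array numbered 1 was the lowest of its group in both cases, the groups overlapped, and the log2 fold change was -0.44 (limma adjusted p = 0.299). Vim (vimentin, an intermediate filament protein of mesenchymal cells that cultured hepatocytes also acquire) read 12.50, 12.47 and 12.47 in siControl and 12.37, 12.41 and 12.30 in siRetSat, a log2 fold change of -0.12 (limma adjusted p = 0.634).

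**Figure D2:**
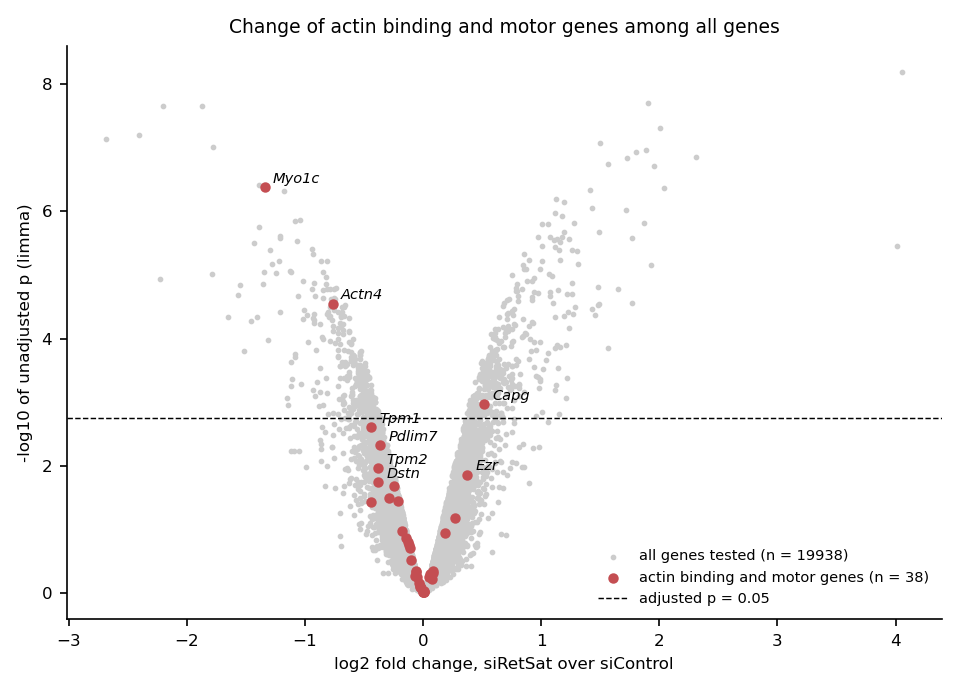
The x axis gives the log2 fold change, siRetSat over siControl, and the y axis -log10 of limma's p before adjustment, with a point per gene. Grey points are all 19938 genes tested, red points the 38 actin binding and motor genes, and the dashed line is the adjusted p of 0.05, above which Myo1c, Actn4 and Capg lie.

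Separation of the groups was more often downward than upward among these genes. All 3 siRetSat arrays lay below all 3 siControl arrays for 13 of the 38 genes, or 34.2%, against 10.1% of all genes. These were Actr3, Arpc5, Tpm1, Tpm2, Tagln2, Myo1c, Actn4, Flna, Pdlim7, Lasp1, Cttn, Dstn and Vim. The opposite separation held for 2 genes, Ezr and Capg, or 5.26%, against 9.33% of all genes. With a log2 change of at least 0.32 added, 6 of the 13 remained (Tpm1, Tpm2, Myo1c, Actn4, Pdlim7 and Dstn) and both higher genes did, against 4.23% and 4.08% of all genes. All genes were read on the same 6 arrays, and the list was chosen with earlier results of these data known. None of the 38 was dim, while all genes include dim ones. These counts are thus a description. The spread between replicate arrays also was small for these genes, with a median within-group SD of 0.096 against 0.14 over all genes. Apart from Myo1c, Actn4 and Capg, no separated gene passed the test across all genes.

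The arrays numbered 1 and 2 deviated in the same way in both groups. In siControl 1, 28 of 38 genes lay below their own group mean, and in siRetSat 1, 27 did. In the arrays numbered 2, 28 genes in siControl and 30 in siRetSat lay above it. The arrays numbered 3 were mixed, with 20 and 16 genes above. The labels do not say whether a number marks a shared day or batch, and its part in these deviations was not tested.

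Several muscle-type relatives of these genes had larger log2 fold changes than the cytoskeletal forms. By limma, 6 of 12 muscle-type or other relatives measured fell and none rose. At an unadjusted p under 0.05, 7 were lower and none higher. They were actins, calponin, transgelins, myosins, actinins and desmin, listed with earlier results of these data known. Among all genes, 1.66% were called lower and 1.91% higher, and 7.52% and 6.98% were lower and higher at that unadjusted p. Acta2, Acta1 and Actc1, the smooth, skeletal and cardiac muscle actins, had log2 fold changes of -2.40, -1.78 and -1.39, and Cnn1 (calponin 1), Tagln (transgelin) and Myl9 (a myosin light chain) of -1.87, -1.46 and -0.98. Without both arrays numbered 2, Actc1, Tagln and Myl9 did not pass, at limma adjusted p of 0.0797, 0.108 and 0.115. Without both arrays numbered 3, Tagln and Myl9 did not pass, at 0.0824 and 0.0972, nor did they by the methods' t-test after adjustment, at 0.115 and 0.0869. Myh11 and Actg2, at -0.53 and -0.33, and Tagln3, Actn2, Actn3 and Des, at -0.10, -0.08, -0.03 and 0.11, did not pass. Within each array, the log2 value of Acta2 minus that of Actb was -3.29, -3.04 and -3.09 in siControl and -5.68, -5.26 and -5.50 in siRetSat. This difference thus changed by -2.34, with no overlap between the groups. The matching change was -1.72 for Acta1 and -1.32 for Actc1 against Actb, -1.87 for Cnn1 against Cnn2 and against Cnn3, -1.31 for Tagln against Tagln2 and -0.95 for Myl9 against Myl6. Each of these 7 contrasts had p = 0.1 in a two-sided exact permutation test, the smallest p that 3 against 3 arrays allow. For Myh11 the change was -0.43 against Myh9 (exact permutation p = 0.3) and -0.62 against Myh10 (exact permutation p = 0.2). In all, 9 contrasts were made, and none could reach 0.05 after or before adjustment. Myl9 and Myl6 are not forms of the same light chain. The myosin light chains Myl12a and Myl12b, at log2 fold changes of 0.08 and 0.08, were not set against Myl9. The actins are close paralogs, and probes of Acta1, Acta2 and Actc1 may share transcripts, which was not tested. Among the alpha-actinins, the non-muscle form Actn4 fell, and the muscle forms Actn2 and Actn3 were dim and did not pass. The difference between these forms was not tested.

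**Figure D3:**
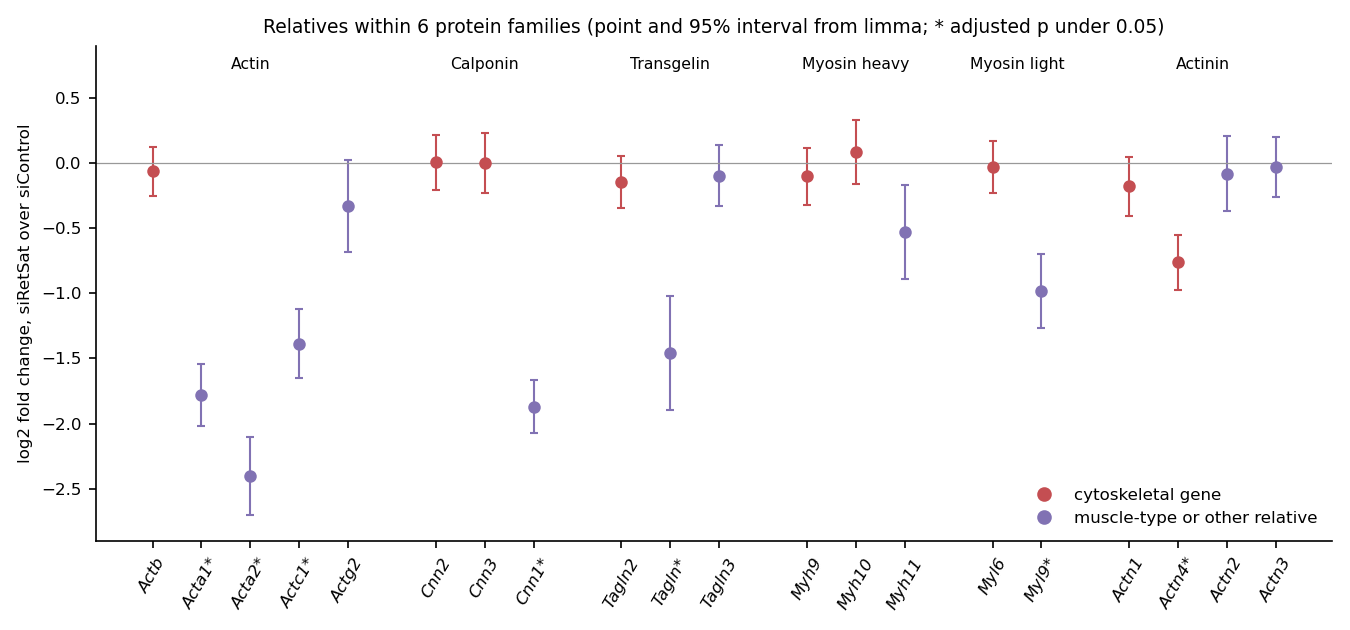
Points are log2 fold changes of siRetSat over siControl (y axis) with their 95% interval from limma, for relatives within 6 protein families (x axis). Cytoskeletal genes are red and muscle-type or other relatives purple, with Acta2 at -2.40 and Cnn1 at -1.87 far below Actb at -0.06, Cnn2 and Cnn3 near 0, and Actn4 at -0.76 below Actn1 at -0.18.

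Many muscle and cytoskeletal actin genes are known targets of serum response factor, which binds the CArG box. Promoters from RefSeq (GRCm38.p6) were therefore searched for an exact CArG box in the 250 bases before each start. The box reads as a CArG box on either strand. It was found for 439 of 27025 genes (1.62%). Of 39 listed genes with a promoter entry it was found for 6, namely Actg1, Arpc4, Cnn2, Myl6, Vcl and Vil1. Of 8 muscle-type or other relatives with an entry it was found for 3, namely Acta1, Actc1 and Myl9. Actb, Cttn, Tagln, Myh11, Actg2 and Actn3 had no entry. Windows around the box are shown for genes of both kinds, because both hold it and their log2 fold changes can be read side by side. Capitals mark the box and lower case the bases beside it, read 5′ to 3′ on the strand of the gene.
Cnn2 (chr10:79988519-79988578, + strand): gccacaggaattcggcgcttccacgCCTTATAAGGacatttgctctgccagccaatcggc
Myl6 (chr10:128493025-128493084, - strand): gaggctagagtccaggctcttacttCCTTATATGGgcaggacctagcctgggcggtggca
Vcl (chr14:20929148-20929205, + strand): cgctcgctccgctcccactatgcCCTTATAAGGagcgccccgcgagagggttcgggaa
Vil1 (chr1:74409286-74409345, + strand): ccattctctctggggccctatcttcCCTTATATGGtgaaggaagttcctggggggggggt
Acta1 (chr8:123894814-123894873, - strand): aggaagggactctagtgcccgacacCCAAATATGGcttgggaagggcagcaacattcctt
Actc1 (chr2:114052888-114052947, - strand): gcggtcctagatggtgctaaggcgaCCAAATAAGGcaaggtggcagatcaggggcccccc
Myl9 (chr2:156775278-156775337, + strand): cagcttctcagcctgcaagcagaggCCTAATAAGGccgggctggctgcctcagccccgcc
The first 4 belong to cytoskeletal genes with log2 fold changes of 0.00, -0.03, 0.01 and -0.44, none of them past the test. The last 3 belong to muscle-type relatives that fell, at -1.78, -1.39 and -0.98. Cnn2 and Vcl carried the same 10 letters, as did Myl6 and Vil1. Myo1c, Actn4, Capg, Acta2 and Cnn1 had no exact match in this window. A match is a description of the letters and not evidence of binding.

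Other genes of actin regulation were followed in 98 genes listed by role, with earlier results of these data known, of which 90 were measured. Of these, 6 fell, 1 rose and 83 did not pass, with a median log2 fold change of -0.04. Over all genes, 1.66% were called lower and 1.91% higher. In the fit without dim genes, 6 of 83 regulators were called lower and 1 higher, against 470 and 494 of 11960 genes. Of the 90, 74 in 4 of the role groups are described here, of which 4 fell and 1 rose. Among bundling and scaffold genes 4 of 23 fell. Lcp1, the leukocyte plastin that bundles filaments, had a log2 fold change of -0.60 (limma adjusted p = 0.0168). Svil (supervillin, a membrane-bound actin binder), Plec (plectin, a cytoskeletal linker) and Fermt2 (kindlin 2, an integrin activator) were at -0.56, -0.47 and -0.47. Against 9794 of 19938 over all genes, 20 of 23 values in this group were negative, with a median of -0.21. At an unadjusted p under 0.05, 10 of these 23 genes were lower and none higher, against 7.52% and 6.98% of all genes. Marcks had the lowest value of the group, -1.05, and did not pass (limma adjusted p = 0.104). The 1 gene that rose was Myo18a, an unconventional myosin, at 0.37 (limma adjusted p = 0.0448). Of the 13 other myosins measured, 1 was lower and 4 higher at an unadjusted p under 0.05. None of 17 nucleation genes and none of 21 genes acting at filament ends was called by limma, with 1 higher in the first group and 1 lower in the second at an unadjusted p under 0.05. Lcp1 was called in 4 of the 6 fits that omit an array, failing without siControl 2 or siRetSat 2. Svil, Plec, Fermt2 and Myo18a were called in none of them.

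**Figure D4:**
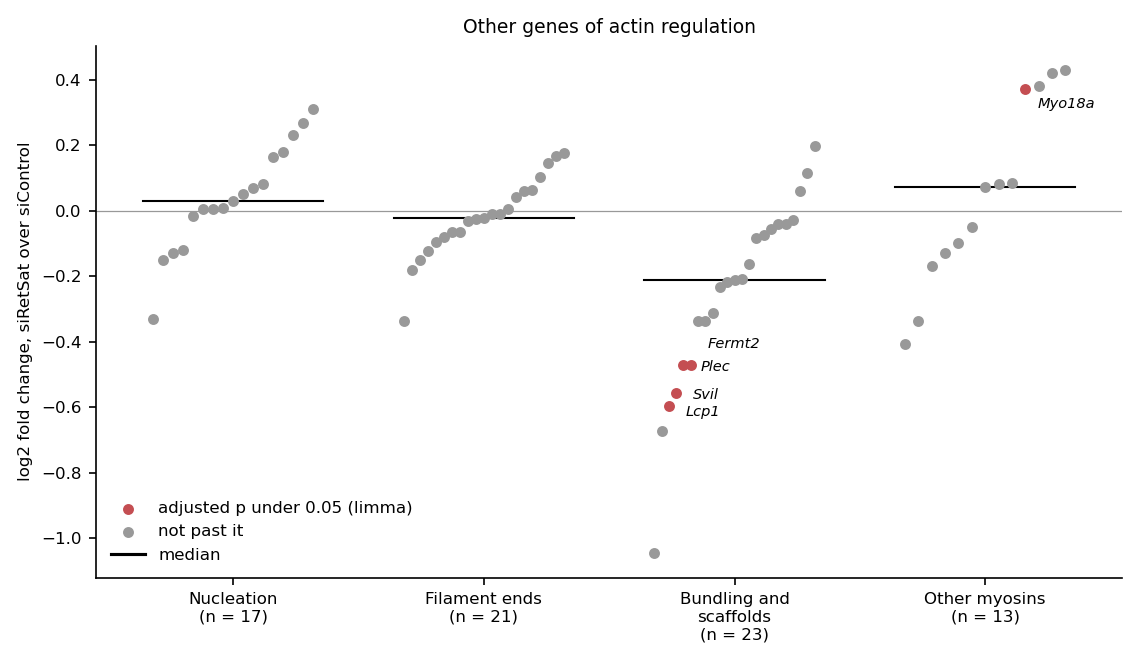
Each dot is 1 of 74 other genes of actin regulation, placed on the y axis by its log2 fold change (siRetSat over siControl), in 4 role groups on the x axis. Red dots passed an adjusted p of 0.05 by limma, black lines are group medians, and bundling and scaffold genes have the lowest median, at -0.21.

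Markers of other liver cells were read beside these results. For hepatic stellate cells, 7 of 10 markers were dim, among them Lrat, Pdgfrb and Des, and the summed linear intensity ran from 281 to 288 in siControl and from 352 to 376 in siRetSat. This difference lay in Ecm1, called higher at 0.69. The other 9 stellate markers had log2 fold changes from -0.07 to 0.14, and their sums of 142 to 170 and 148 to 176 overlapped. For fibroblasts, the sum over 8 markers ran from 230 to 286 in siControl and from 222 to 449 in siRetSat, so the groups overlapped. Sums of 10 endothelial markers overlapped as well, at 322 to 377 and 318 to 377. The 6 measured of 8 bile duct markers summed to 4042 to 4199 in siControl and 3600 to 4008 in siRetSat. Cldn4, by far the brightest of them, was at -0.10 and did not pass (limma adjusted p = 0.757). Of the 6 log2 fold changes, 3 were negative and 3 positive, with Sox9 called higher at 0.45. Of 9 hepatocyte markers, 3 were called lower, namely Tat, Cps1 and Fgb at -0.72, -0.82 and -0.42. At an unadjusted p under 0.05, 5 were lower and none higher, with Apob and Asgr1 at -0.36 and -0.40 among them. The shares of all genes called lower and higher were 1.66% and 1.91%. At that unadjusted p they were 7.52% and 6.98%. Neither stellate, fibroblast nor endothelial markers were called lower by limma, with none lower for stellate cells and fibroblasts and 2 lower for endothelium at an unadjusted p under 0.05.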

How the data were processed

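RNA of the hepatocytes was read on 6 arrays (Affymetrix Mouse Gene 1.0 ST), 3 for each siRNA. The authors' deposited table holds normalized log2 values of 35556 probe sets. RMA and Partek 6.6 are the tools in the submitters' processing notes, and no filter is stated. Deposited values ran from 1.46 to 13.70, with array medians of 4.29 to 4.50. The number of arrays limits the precision.

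A single symbol was given for 21789 probe sets, several for 1621 and none for 12146. Of those with a single symbol, 21698 were matched by Entrez identifier to RefSeq's table (GRCm38.p6) and took its symbol, changed or not. The brightest probe set per gene was kept. Over 19938 genes, limma 3.58.1 under R 4.3.3 (lmFit, then eBayes, without covariates) gave the comparison. The step was tested on simulated data. Contrasts between relatives used exact permutation over arrays. Plots were drawn with Python 3.11.15 and matplotlib 3.10.9.

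Members and lists were chosen with earlier results of these data known. Genes were named by rule. Members named were all called ones and those without overlap at a log2 change of at least 0.32. The brightest and the smallest p of each role were added. So were all muscle-type or other relatives and the called regulators of the role groups described. Other members, further regulators and the markers were named beside them. Of the regulators, 1 role group is not reported here. Alternatives were the methods' t-test, their cutoffs (unadjusted p under 0.05, log2 change of at least 0.32), a variance trend, array weights, a replicate block, no dim genes, another normalization, median centring, the mean of probe sets and the omission of arrays. The contrast of Actc1 and the marker sums without Cd14, Cd68 and Ecm1 were added after seeing the data.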

Additional observations from a re-analysis of the deposited data

How the results depend on the processing

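The median log2 fold change of the 38 genes stayed between -0.08 and -0.04 under every alternative, and Retsat was called in each. Myo1c was called in all of them except without both arrays numbered 2. Actn4 was lost there and without both numbered 3. Counts of calls are given as higher and lower for the 38 genes, then for the 90 regulators, against 1 and 2, and 1 and 6. By limma at the methods' cutoffs (unadjusted p under 0.05, log2 change of at least 0.32) they were 2 and 7, and 4 and 13. By the methods' t-test at these cutoffs they were 2 and 5, and 1 and 10, and after adjustment 0 and 2, and 1 and 1. Calls over all genes numbered 710 in the reported fit, 1078 with a variance trend, 2905 with array weights, 1541 with the block and 342 with centred arrays. With a variance trend the counts were 1 and 5, and 1 and 10, and with array weights 3 and 8, and 8 and 16. With the replicate number as a block they were 1 and 7, and 3 and 13. The block added Tpm1, Tpm2, Pdlim7, Dstn and Vil1 to the members called lower, the first 4 at limma adjusted p of 0.0186, 0.0283, 0.0400 and 0.0337. The reported fit does not pair the arrays by number. Deviations from the mean of the own group correlated at 0.547, 0.0398 and 0.541 between same-numbered arrays. Those of siControl 2 correlated better with siRetSat 3. These correlations do not settle whether the numbers pair the arrays. Yet the first principal component of the deviations from the own group mean ordered the arrays by number in both groups. Its scores ran from -19.0 through 3.66 to 15.4 for siControl, and from -23.6 through 7.26 to 16.4 for siRetSat. This component held 61.5% of the variance of those deviations, a share that leaves out the difference between the groups. The labels do not say what the numbers mark. With arrays centred on their medians the counts were 0 and 2, and 0 and 1. When an array was omitted, higher calls ran from 0 to 1 and lower calls stayed at 2, and for the regulators higher calls were 0 in each case and lower calls 0 to 4. Without both arrays numbered 1 the counts were 1 and 3, and 0 and 7. Without both numbered 2 they were 0 and 0, and 0 and 0, with 1 and 5, and 1 and 9, at an unadjusted p under 0.05 by limma. Without both numbered 3 they were 0 and 1, and 0 and 0, with 2 and 5, and 6 and 12, at an unadjusted p under 0.05. For the counts of calls, the median and Retsat, 46 results moved beyond the limit set for them and 68 did not. All 46 were counts of calls, while the median and Retsat never moved beyond theirs. Values of named genes and contrasts kept their side of the threshold or, for contrasts, their sign in 631 cases. A call was lost in 82 and gained in 29, and no called value changed sign. The contrasts between relatives kept their sign throughout.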
